A study of Mus musculus with 6 samples.

Results

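The 10 genes described here encode histone variants and linker histones that a cell can make outside S phase: H3f3a and H3f3b (histone H3.3), H2afz and H2afv (H2A.Z), H2afx (H2A.X), H2afy (macroH2A), H2afj (H2A.J), H1f0 and H1fx (linker histones) and Cenpa (CENP-A). They were taken by name from the 27998 gene columns of a single-cell count table, with earlier results of these data known. UMIs, the molecular tags that count each captured transcript once, were found for 9 of the 10 in all 6 libraries. The same 9 reached a mean of 20 CPM over the libraries, where CPM is the UMIs of a gene, summed over the cells of a library, per 1000000 UMIs of that library.

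The cells were iGMPs, granulocyte-macrophage progenitors from bone marrow of mouse strain C57BI/6 (spelled as in the sample descriptions) with the Lys-GFP reporter and with HoxA9 fused to the hormone-binding domain of the estrogen receptor (ER). HOXA9 is a transcription factor that keeps such progenitors self-renewing for as long as estradiol is present, and all cultures also received stem cell factor. The CAF-1 OFF arm was 1 clone in which IPTG induces a hairpin against Chaf1b, which encodes part of CAF-1. It stayed in 150 ng/ml estradiol and was sampled at 0 h without IPTG and after 48 and 96 h in 500 µM IPTG. The HOXA9 OFF arm was 1 clone with a control vector, which held a spacer sequence in place of the hairpin, and no IPTG. It was sampled at 0 h in 150 ng/ml estradiol and 48 and 96 h after estradiol was taken away, when the cells mature along the neutrophil path. Each of the 6 groups was 1 library of droplet 3′ RNA-seq, so the spread between cultures is unknown and no test between groups was possible. All intervals below are 95% intervals that cover counting error only, and a difference between the arms cannot be told apart from a difference between the clones.

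Canonical histones are made in S phase and deposited behind the replication fork, where CAF-1 places new H3 and H4. Variants can be made and placed throughout the cell cycle by other chaperones: HIRA and the DAXX-ATRX pair for H3.3, the SRCAP and EP400 complexes for H2A.Z, and HJURP for CENP-A. Their RNA is mostly polyadenylated, so libraries primed on poly(A) tails read most of it, whereas most canonical histone RNA ends in a stem-loop and is read poorly. The part of each member's RNA with a poly(A) tail was not measured.

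The start sites of 4 genes are printed because H3f3a and H3f3b encode the same protein from separate promoters, because H3f3b and H1fx differed most in CAF-1 OFF, and because Cenpa is the member most tied to cell division. Each line gives the 250 bases before the RefSeq start site (build GRCm38.p6), 5′ to 3′ on the gene's strand, with motifs found on either strand in capitals. The motifs searched were the CCAAT box, the TATA box (letters TATAAA), the CHR element (letters TTTGAA) and the H1 box (letters AAACACA).
H3f3a (chr1:180813606-180813855, minus strand): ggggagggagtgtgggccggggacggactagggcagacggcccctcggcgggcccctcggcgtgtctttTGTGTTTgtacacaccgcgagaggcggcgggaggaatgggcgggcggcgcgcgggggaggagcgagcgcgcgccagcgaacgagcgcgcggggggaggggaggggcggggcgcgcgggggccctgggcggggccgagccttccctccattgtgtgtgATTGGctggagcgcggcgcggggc
H3f3b (chr11:116024505-116024754, minus strand): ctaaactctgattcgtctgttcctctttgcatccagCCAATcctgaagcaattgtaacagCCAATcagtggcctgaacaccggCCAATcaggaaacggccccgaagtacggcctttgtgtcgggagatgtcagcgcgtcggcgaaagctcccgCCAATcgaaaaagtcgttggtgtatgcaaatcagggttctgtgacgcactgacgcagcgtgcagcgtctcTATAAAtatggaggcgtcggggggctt
H1fx (chr6:87981483-87981732, minus strand): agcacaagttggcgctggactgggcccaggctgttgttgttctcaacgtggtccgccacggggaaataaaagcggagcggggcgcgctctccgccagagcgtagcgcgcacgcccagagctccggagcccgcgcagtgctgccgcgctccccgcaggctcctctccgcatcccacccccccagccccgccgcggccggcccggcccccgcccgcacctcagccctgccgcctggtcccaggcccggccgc
Cenpa (chr5:30666636-30666885, plus strand): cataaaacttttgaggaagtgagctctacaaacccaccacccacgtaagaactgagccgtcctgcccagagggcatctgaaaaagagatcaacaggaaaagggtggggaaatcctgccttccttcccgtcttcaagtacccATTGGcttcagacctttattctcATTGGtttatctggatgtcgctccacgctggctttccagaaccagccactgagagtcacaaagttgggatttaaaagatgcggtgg

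In the H3f3b window the CCAAT box stood 4 times in the same orientation, beginning 214, 190, 167 and 97 bases before the start, and a TATA box began 27 bases before it. The H3f3a window held 1 CCAAT box at 24 bases and 1 H1 box at 181 bases, both on the opposite strand. In the Cenpa window 2 CCAAT boxes lay on the opposite strand, at 109 and 86 bases, while the H1fx window held none of the 4 motifs. G and C made up 77.2% of the H3f3a window, 75.2% of the H1fx window, 54% of the H3f3b window and 48.8% of the Cenpa window. Of 32851 mouse promoter windows of this length, 33.8% held a CCAAT box, 12.4% a TATA box, 16% a CHR element and 6.25% an H1 box. These matches describe letters only. The start used for H3f3b lies 1535 bases inside the span of the gene (chr11:116021961-116026039), so its window lies inside that span, and the last 9 bases of the Cenpa window fall inside the span of that gene. The table held a window for 9 of the 10 members, H2afx being the gene without one. In the same build the members lie at chr1:180802560-180813605 (H3f3a), chr11:116021961-116026039 (H3f3b), chr3:137864487-137866922 (H2afz), chr9:44334715-44336077 (H2afx), chr13:56073622-56135626 (H2afy), chr11:6427226-6444511 (H2afv), chr6:136808248-136810074 (H2afj), chr15:79028212-79030504 (H1f0), chr6:87980421-87981482 (H1fx) and chr5:30666877-30674837 (Cenpa).

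The libraries held 473 to 1510 kept cells and 3524285 to 5589486 UMIs each, with a median depth per cell of 2044 UMIs in HOXA9 OFF at 96 h and 8660 in HOXA9 OFF at 0 h. The limit of 10% mitochondrial UMIs, with the limits on genes per cell, removed 41.7% and 66.2% of the barcodes at 0 h, against 0.198% of HOXA9 OFF at 96 h. Of the kept barcodes, 16 occurred in more than 1 library. Chaf1b, the target of the hairpin, was at 35.6, 3.22 and 6.49 CPM over the CAF-1 OFF libraries in order of time, 11.1-fold lower (6.76 to 19.2) at 48 h and 5.49-fold lower (3.78 to 8.17) at 96 h than at 0 h. Over the HOXA9 OFF libraries, which carried the control vector, Chaf1b was at 51.5, 15.3 and 1.13 CPM. Summed progenitor markers stood at 7579 and 6701 CPM in the uninduced libraries, Cd34 at 756 and 660.1 CPM, late neutrophil markers at 0 and 0.477 CPM and markers of tissues outside blood at 0 and 0.239 CPM.

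**Figure D1:**
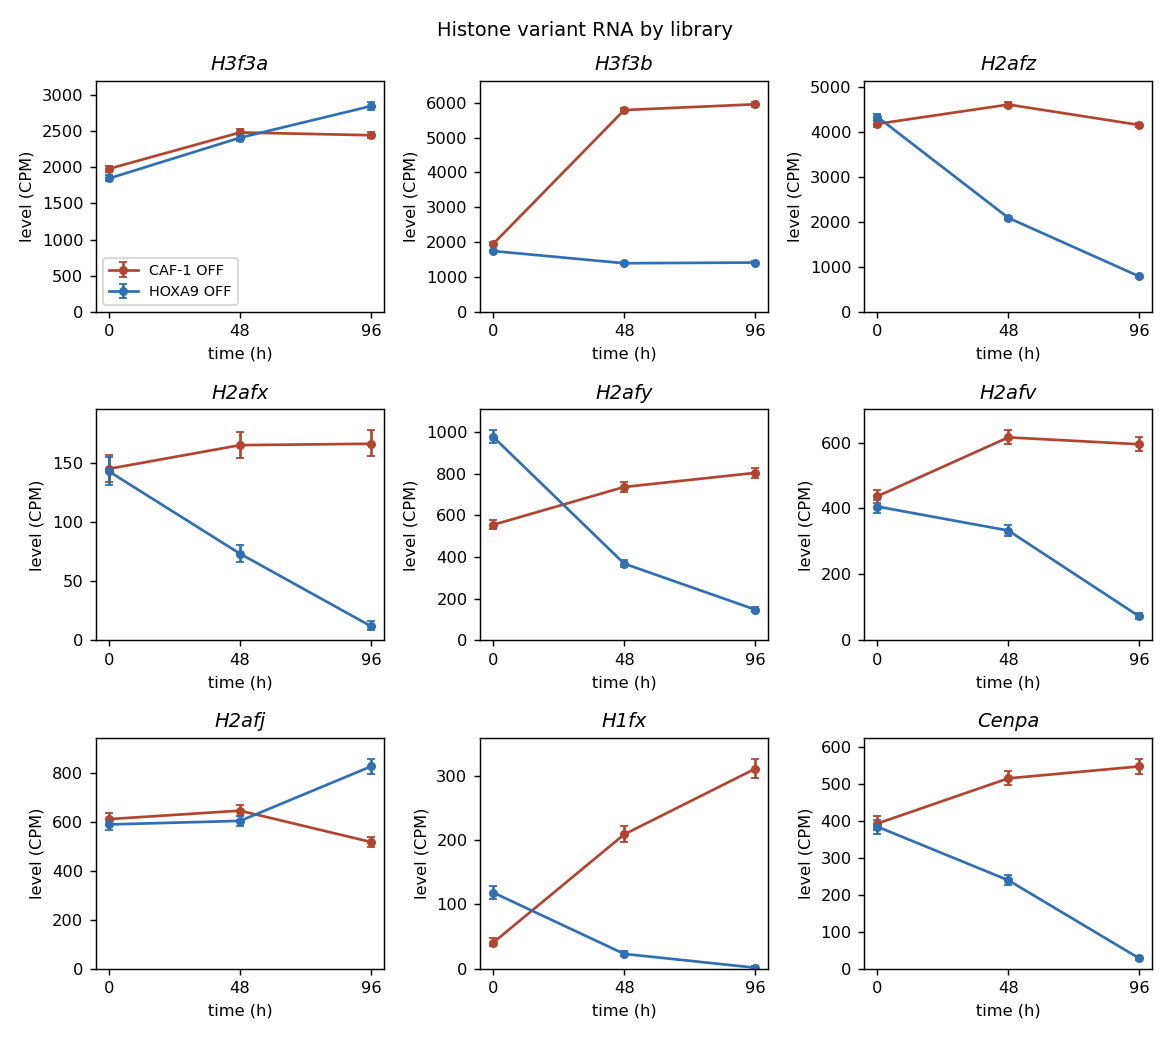
Level of 9 histone variant genes in each library, as CPM (linear axes from 0) against hours after induction. Red points are the CAF-1 OFF libraries, blue points the HOXA9 OFF libraries, lines join libraries of 1 clone, and bars are exact 95% Poisson intervals, which cover counting error only. In CAF-1 OFF, H3f3b went from 1948 to 5956 CPM and H1fx from 40.6 to 311 CPM, whereas in HOXA9 OFF Cenpa went from 384 to 28.1 CPM and H2afz from 4338 to 787 CPM.

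In CAF-1 OFF, H3f3b and H1fx exceeded their 0 h level by at least 2-fold at both times, 2 of the 9 counted members, and no member was 2-fold lower. Of the 4789 genes that reached a mean of 20 CPM, 2.76% were at least 2-fold higher at 48 h and 5.22% at 96 h, and 0.0418% and 0.856% were at least 2-fold lower. These ratios, and all log2 ratios below, had 10 CPM added to both libraries. The median log2 ratio of the members was 0.38 at 48 h and 0.44 at 96 h, beside 0.00 and -0.08 over all counted genes.

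In HOXA9 OFF the members were mostly lower. H2afz, H2afy and H1fx were at least 2-fold lower at 48 h, and at 96 h so were H2afx, H2afv and Cenpa, leaving H3f3a, H3f3b and H2afj within 2-fold. Of all counted genes 19.6% were at least 2-fold lower at 48 h and 39.8% at 96 h, so the 6 of 9 members at 96 h stood against a background in which such differences were common. No member was 2-fold higher, while 13% and 18.1% of genes were. The median log2 ratio of the members was -0.66 and -2.45, beside -0.23 and -0.56 over all counted genes. The 10 genes together made up 10289, 15771 and 15497 CPM over the CAF-1 OFF libraries and 10548, 7536 and 6137 CPM over the HOXA9 OFF libraries. A HOXA9 OFF cell held a mean of 93.4, 28.5 and 14.3 of their UMIs at the 3 times, while the later cells also held fewer UMIs of all genes. In a summed library, fewer cells with a transcript and less of it per cell cannot be told apart.

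Before induction the clones differed little at most members. In the uninduced HOXA9 OFF library against the uninduced CAF-1 OFF library, H1fx was 2.92-fold higher (2.45 to 3.50) and H2afy 1.76-fold higher (1.67 to 1.85), and each of the other 7 counted members lay within a log2 ratio of 0.16 of 0. Between these libraries 0.752% of counted genes were at least 2-fold higher and 0.146% at least 2-fold lower, with H1fx at rank 13 from the highest.

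Histone H3.3 marks active genes and is the H3 that a cell can deposit without replicating its DNA. Its gene H3f3b was at 1948, 5791 and 5956 CPM over the CAF-1 OFF libraries in order of time and at 1746, 1395 and 1415 CPM over the HOXA9 OFF libraries. Both induced CAF-1 OFF libraries lay above the other 4, none of which passed 1948 CPM. Against 0 h, H3f3b was 2.97-fold higher (2.90 to 3.05) at 48 h and 3.06-fold higher (2.98 to 3.13) at 96 h, ranks 46 and 105 from the highest of the counted genes, and it was 1.03-fold higher (1.01 to 1.04) at 96 h than at 48 h. By level H3f3b ranked 96 among all genes at 0 h and 10 and 12 at the later times. Once estradiol was withdrawn, H3f3b was 1.25-fold lower (1.21 to 1.29) at 48 h and 1.23-fold lower (1.19 to 1.28) at 96 h in CPM, the latter a direction that turns under TMM scaling. The log2 ratio at 48 h kept its sign but ranged from -0.35 to -0.02 over the ways of processing tried, so its size depends on the scaling. Among barcodes that passed the limits on genes per cell and were removed by the mitochondrial limit, H3f3b stood at 1515, 3283 and 5111 CPM over the CAF-1 OFF libraries.

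H3f3a encodes the identical protein. It was at 1979, 2482 and 2444 CPM over the CAF-1 OFF libraries and at 1846, 2409 and 2847 CPM over the HOXA9 OFF libraries, so it was higher at the later times in both arms. At 96 h H3f3a was 1.23-fold higher (1.20 to 1.27) in CAF-1 OFF and 1.54-fold higher (1.497 to 1.59) in HOXA9 OFF, both under the 2-fold size in CPM.

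The balance of the pair therefore went opposite ways. H3f3b gave 49.6% (48.8 to 50.4) of the H3.3 UMIs in the uninduced CAF-1 OFF library, 70.0% (69.6 to 70.4) at 48 h and 70.9% (70.5 to 71.3) at 96 h, with exact binomial intervals. Its share in HOXA9 OFF was 48.6% (47.8 to 49.4) at 0 h, 36.7% (36 to 37.3) at 48 h and 33.2% (32.4 to 34.0) at 96 h. Both genes were counted in the same libraries, so the share does not depend on how libraries are scaled. With the mitochondrial limit lifted and the limits on genes per cell kept, it was 50.3%, 70.1% and 71.3% over the CAF-1 OFF libraries. Over the HOXA9 OFF libraries it was then 49.0%, 36.9% and 33.2%. The summed H3.3 level was 3927, 8273 and 8399.5 CPM and 3591, 3804 and 4262 CPM in the same order. Both genes have processed copies in the genome, so reads that match more than 1 place leave the single-gene values uncertain.

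Most cells held H3f3b UMIs at 0 h, so the share of cells with a UMI had little room to move. With every cell thinned to 1300 UMIs, which left out 1 to 134 shallower cells a library, H3f3b was detected in 90.05%, 98.6% and 97.1% of cells over the CAF-1 OFF libraries and in 87.5%, 79.4% and 81.1% over the HOXA9 OFF libraries. Without thinning the shares were 99.7%, 99.8% and 100%, and 99.6%, 96.4% and 91.0%, at median depths of 6571, 5998 and 5956 UMIs and 8660, 3536 and 2044 UMIs.

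The number of UMIs per cell moved far more. At 1300 UMIs a CAF-1 OFF cell held a mean of 2.57, 7.03 and 7.26 H3f3b UMIs at the 3 times, and the variance between cells was 1.25, 3.32 and 4.90 times the mean. For H3f3a in the same cells the variance was 1.19, 1.14 and 1.08 times the mean, and for H3f3b in HOXA9 OFF 1.16, 1.26 and 1.24 times. The median CAF-1 OFF cell went from 2 to 6 and 5 H3f3b UMIs, the 10th percentile was at 1, 2 and 2 and the 90th percentile at 5, 14 and 16. No uninduced CAF-1 OFF cell held more than 10, but 190 of 907 cells did at 48 h (20.9%, 18.3 to 23.7) and 203 of 902 at 96 h (22.5%, 19.8 to 25.4). The level of H3f3b was thus higher in the median cell and also more unequal between cells.

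**Figure D2:**
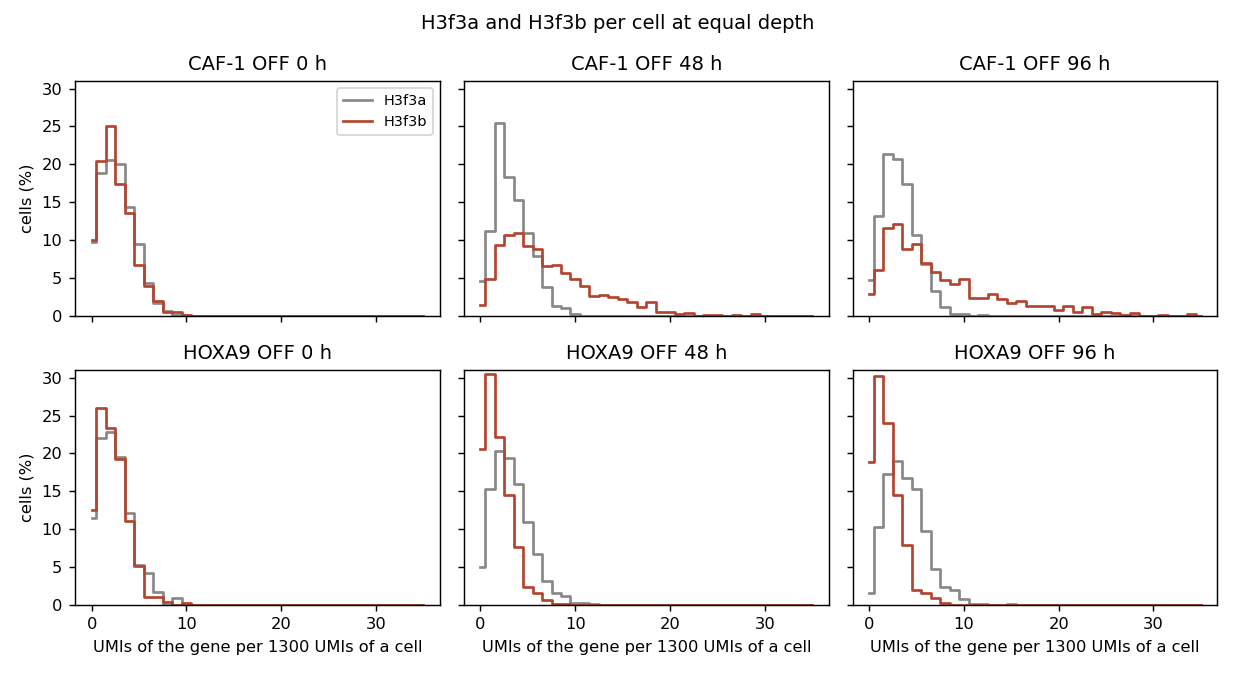
Percent of cells (vertical axis) by the number of UMIs of H3f3a (grey) or H3f3b (red) in a cell thinned to 1300 UMIs (horizontal axis), with 1 panel for each library. The curves lie close at 0 h. H3f3b reaches 29 and 34 UMIs at 48 and 96 h of CAF-1 OFF while H3f3a ends at 10 and 12, and in HOXA9 OFF at the later times H3f3b lies to the left of H3f3a.

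The cells above 10 H3f3b UMIs were then set against the rest of their library, a limit chosen after the counts were seen. At 48 h the 190 H3f3b-rich cells held H1fx at 338 CPM and the other 717 cells at 170.3 CPM, 1.98-fold (1.76 to 2.24). At 96 h the 203 rich cells held H1fx at 589 CPM and the other 699 at 219 CPM, 2.69-fold (2.44 to 2.96). The rich cells were therefore also the cells with more H1fx.

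The other members divided. H2afv in the rich cells was 1.08-fold (1.00 to 1.17) at 48 h and 1.62-fold (1.51 to 1.75) at 96 h relative to the other cells, and H2afz was 1.16-fold (1.13 to 1.20) and 1.49-fold (1.45 to 1.53). H3f3a was 0.959-fold (0.922 to 0.999) and 1.08-fold (1.03 to 1.12), so the sister gene was slightly lower in the rich cells at 48 h and slightly higher at 96 h. Cenpa was 0.832-fold (0.758 to 0.912) and 0.857-fold (0.784 to 0.935). The sum of the G2/M list was 1.104-fold (1.07 to 1.14) and 1.21-fold (1.17 to 1.25), that of the S phase list 1.04-fold (1.01 to 1.08) and 1.32-fold (1.27 to 1.37), and that of the eosinophil list 0.744-fold (0.672 to 0.823) and 0.289-fold (0.265 to 0.315). The rich cells were deeper, with medians of 6837 against 5761 UMIs at 48 h and 6638 against 5711 at 96 h, and 155 and 124 cells held 9 to 12 H3f3b UMIs, next to the limit. The part of depth and cell cycle in these differences was not tested. With a limit of 15 UMIs, H1fx was 1.68-fold (1.398 to 2.00) and 2.79-fold (2.51 to 3.11), and Cenpa 0.683-fold (0.577 to 0.805) and 0.674-fold (0.591 to 0.766). The eosinophil list moved with the limit, being 0.198-fold (0.142 to 0.270) at 48 h and 0.463-fold (0.418 to 0.511) at 96 h with 15 UMIs, and the G2/M list was then 0.956-fold (0.901 to 1.01) and 1.02-fold (0.974 to 1.07), with an interval that held 1 at both times.

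**Figure D3:**
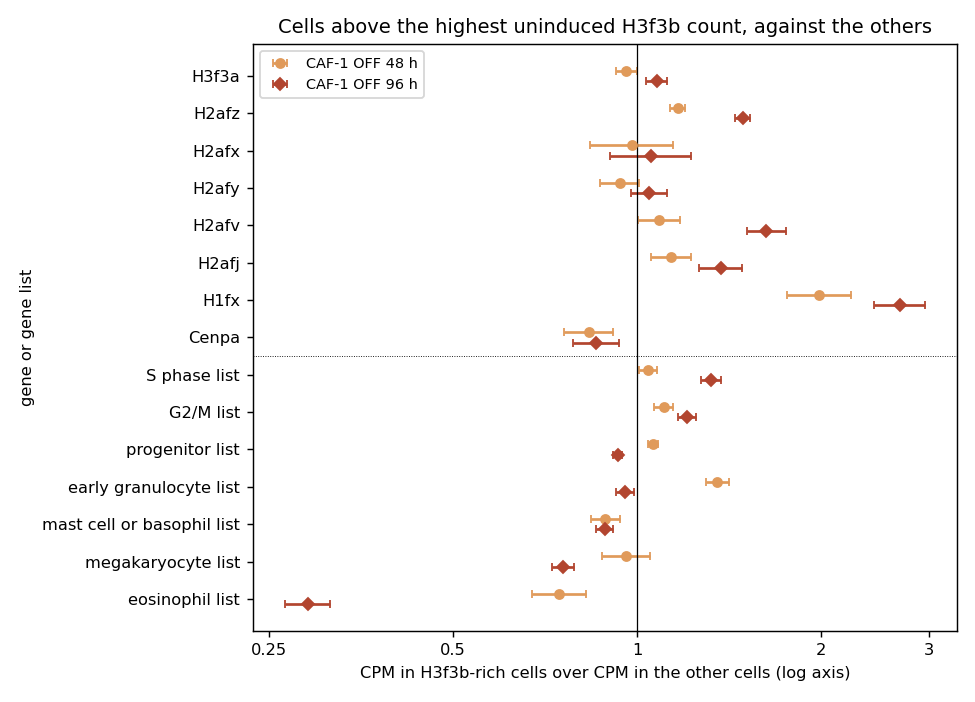
CPM in cells with more than 10 H3f3b UMIs per 1300 divided by CPM in the other cells of the same library (horizontal log axis), for the other counted members (above the dotted line) and for the summed marker lists (below it). Circles are CAF-1 OFF at 48 h, diamonds CAF-1 OFF at 96 h, and bars 95% counting intervals. H1fx lies farthest to the right at both times (1.98 and 2.69), and the eosinophil list farthest to the left (0.744 and 0.289).

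Linker histones bind the DNA between nucleosomes, and H1fx, which encodes H1.X, had the widest range of all members. Its level was 40.6, 209 and 311 CPM over the CAF-1 OFF libraries in order of time and 119, 23.2 and 1.70 CPM over the HOXA9 OFF libraries. The order of the libraries was thus opposite in the arms, and no intervals overlapped within an arm. H1fx was 5.15-fold higher (4.38 to 6.08) at 48 h and 7.67-fold higher (6.55 to 9.03) at 96 h in CAF-1 OFF, ranks 17 and 28 from the highest of the counted genes. Without estradiol H1fx was 5.12-fold lower (4.20 to 6.29) at 48 h and 69.7-fold lower (31.8 to 191) at 96 h, the last value resting on 6 UMIs. The log2 ratios were 2.11 and 2.67 in the first arm and -1.96 and -3.46 in the second. From 48 to 96 h alone, H1fx in CAF-1 OFF was 1.49-fold higher (1.38 to 1.61).

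At 1300 UMIs per cell, H1fx was detected in 5.37% (3.75 to 7.43), 20.7% (18.1 to 23.5) and 25.5% (22.7 to 28.5) of cells over the CAF-1 OFF libraries. The HOXA9 OFF libraries had 16.1% (12.9 to 19.7), 2.25% (1.54 to 3.18) and 0.218% (0.0450 to 0.636). Unthinned, at the depths given for H3f3b, the shares were 22.3%, 58.8% and 56.97%, and 55.6%, 7.19% and 0.331%. In HOXA9 OFF at 96 h, 1 of 1185 cells rich in late neutrophil genes held an H1fx UMI at 1300 (0.0844%, median depth 2032 UMIs). Most cells of that library are of this class, so this share is no separate measure of background there. The background of the other libraries was not measured.

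H1f0 encodes H1.0, known to build up in many differentiated cells that no longer divide. Only 2 UMIs of it were found, both in CAF-1 OFF at 48 h. HOXA9 OFF at 96 h had 0 UMIs, which allows up to 0.851 CPM (3 counts), and in the other 4 libraries without a UMI this limit was 0.556 to 0.716 CPM. H1f0 was therefore not detectable at this depth in those 5 libraries, and no fold is given.

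Of 5 S phase linker histone genes, read here only in small part, 1 reached 20 CPM. Hist1h1c was at 21.4, 46.0 and 38.2 CPM over the CAF-1 OFF libraries and at 24.6, 45.8 and 63.0 CPM over the HOXA9 OFF libraries, and its log2 ratio was at most 0.84 in the first arm and 1.08 at 96 h in the second. Hist1h1c thus lay above 0 h in both arms, where H1fx parted. The 5 genes summed to 70.5, 127 and 91.2 CPM and 81.6, 68.5 and 69.2 CPM in the same order.

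H2A.Z sits in the nucleosomes beside active promoters, where remodelling complexes exchange it. H2afz, which encodes H2A.Z.1, had the most UMIs of the members at 0 h. It was at 4180.3, 4611 and 4156 CPM over the CAF-1 OFF libraries and at 4338, 2091 and 787 CPM over the HOXA9 OFF libraries, 2.07-fold lower (2.03 to 2.12) and 5.51-fold lower (5.29 to 5.74) in the latter. H2afv, which encodes H2A.Z.2, was at 437, 616 and 595 CPM and at 406, 333 and 72.4 CPM in the same order, 1.36-fold higher (1.28 to 1.44) at 96 h in CAF-1 OFF. After estradiol withdrawal H2afv was 1.22-fold lower (1.14 to 1.30) at 48 h, a direction that turns under TMM scaling, and 5.61-fold lower (4.92 to 6.43) at 96 h, so most of its difference came after 48 h. From 48 to 96 h H2afv was 4.604-fold lower (4.04 to 5.27) and H2afz 2.66-fold lower (2.55 to 2.77).

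The balance of the H2A.Z pair moved less than that of H3.3. H2afz gave 90.5% (90.1 to 90.9), 88.2% (87.8 to 88.6) and 87.5% (87.1 to 87.9) of H2A.Z UMIs over the CAF-1 OFF libraries and 91.4% (91.0 to 91.8), 86.3% (85.7 to 86.8) and 91.6% (90.5 to 92.5) over the HOXA9 OFF libraries. These shares compare 3′ ends of RNA and not protein. At 1300 UMIs a HOXA9 OFF cell held a mean of 5.396, 2.34 and 0.946 H2afz UMIs at the 3 times, and the variance was 1.29, 2.72 and 1.28 times the mean. Cells at 48 h were the most unequal in H2afz.

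Of 11 genes that exchange H2A.Z, 8 reached 20 CPM. None differed by 2-fold in CAF-1 OFF, with median log2 ratios of -0.12 and -0.41. In HOXA9 OFF 3 were at least 2-fold lower at 48 h and 4 at 96 h, with medians of -0.73 and -1.58, where 19.6% and 39.8% of all counted genes were lower by that size. Those 4, with their HOXA9 OFF levels in order of time, were Anp32e, which takes H2A.Z out of nucleosomes, at 282, 153 and 15.9 CPM, the helicases Ruvbl1, at 146, 20.7 and 4.54 CPM, and Ruvbl2, at 137, 24.3 and 9.36 CPM, and the actin-related Actl6a, at 181, 50.8 and 22.4 CPM.

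Of 7 genes that deposit H3.3, 5 were counted, and none differed by 2-fold in CAF-1 OFF, where the medians were 0.08 and -0.04. In HOXA9 OFF the medians were -0.21 and -0.12, and 1 of the 5 was at least 2-fold lower at each time, a share near or below the 19.6% and 39.8% of all counted genes. It was Asf1a, a chaperone of H3 and H4, at 93.3, 30.7 and 9.65 CPM over the HOXA9 OFF libraries and at 94.9, 87.3 and 76.7 CPM over the CAF-1 OFF libraries. Daxx was at 17.1, 18.6 and 17.6 CPM and 23.9, 15.4 and 37.7 CPM over the CAF-1 OFF and the HOXA9 OFF libraries, its partner Atrx at 66.7, 54.7 and 59.9 CPM and 75.7, 64.2 and 57.03 CPM, and Ubn2, of the HIRA complex, at 27.3, 30.95 and 30.8 CPM and 22.7, 28.6 and 28.9 CPM.

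CENP-A replaces H3 at centromeres, and its RNA is made mainly in G2. Cenpa was at 393, 515 and 547 CPM over the CAF-1 OFF libraries, 1.31-fold higher (1.23 to 1.39) at 48 h and 1.39-fold higher (1.31 to 1.48) at 96 h. It was at 384, 239 and 28.1 CPM over the HOXA9 OFF libraries, 1.61-fold lower (1.49 to 1.73) and 13.7-fold lower (11.2 to 16.9). The summed G2/M list of 25 genes moved alongside, at 2693, 2958 and 2988 CPM and 2723, 1315 and 200.04 CPM in the same order, and the summed S phase list of 25 genes was at 3188, 3173 and 2534 CPM and 2876, 1095 and 234 CPM. At 96 h in HOXA9 OFF all 22 counted G2/M genes and all 23 counted S phase genes were at least 2-fold lower, and none was in CAF-1 OFF at either time.

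At 1300 UMIs Cenpa was detected in 37.1%, 39.8% and 37.0% of cells over the CAF-1 OFF libraries and in 34.5%, 13.2% and 2.40% over the HOXA9 OFF libraries, and unthinned in 69.2%, 73.9% and 65.8%, and 69.6%, 22.3% and 4.77%. In cells rich in late neutrophil genes of HOXA9 OFF the thinned share was 15.7% (11.7 to 20.3) of 300 cells at 48 h and 2.11% (1.37 to 3.099) of 1185 at 96 h. Most cells of the 96 h library are of this class, so its share is no separate measure of free RNA there, and the free RNA of the other libraries was not measured.

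Of 8 genes for CENP-A loading and the inner centromere, 6 were counted. None differed by 2-fold in CAF-1 OFF, with medians of 0.02 and -0.04. In HOXA9 OFF 2 were at least 2-fold lower at 48 h and 5 at 96 h, with medians of -0.77 and -1.92, beside the same 19.6% and 39.8% of all counted genes. Over the HOXA9 OFF libraries Cenpk was at 66.1, 22.8 and 0.284 CPM and Cenph at 52.0, 15.8 and 0.284 CPM, each with 1 UMI at 96 h. Cenpc1, which binds CENP-A nucleosomes, was at 28.9, 15.3 and 1.99 CPM.

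H2A.X is phosphorylated around DNA breaks. Its gene H2afx was at 145, 165 and 167 CPM over the CAF-1 OFF libraries, within 1.15-fold of 0 h, and at 143, 73.4 and 11.9 CPM over the HOXA9 OFF libraries, 1.95-fold lower (1.71 to 2.22) and 12.0-fold lower (8.78 to 16.8). At 1300 UMIs it was detected in 16.3%, 16.6% and 16.9% and in 14.4%, 6.54% and 1.38% of cells in the same order, and unthinned in 54.1%, 51.5% and 49.3%, and 58.6%, 14.5% and 2.45%. Of 8 genes that act on or through H2A.X, 1 was counted. This was Baz1b, whose product phosphorylates H2A.X, at 63.8, 63.7 and 47.6 CPM and 70.9, 35.4 and 39.4 CPM, with log2 ratios of -0.83 at 48 h and -0.71 at 96 h in HOXA9 OFF, short of the 2-fold size with 10 CPM added.

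MacroH2A1 is a large H2A with an added macro domain, found on silent chromatin, and is encoded by H2afy. H2afy was at 555, 736 and 804 CPM over the CAF-1 OFF libraries, 1.45-fold higher (1.38 to 1.52) at 96 h, and at 977, 368 and 148 CPM over the HOXA9 OFF libraries, 2.65-fold lower (2.51 to 2.80) and 6.62-fold lower (6.04 to 7.27). The uninduced clones differed by 1.76-fold, more than either induced CAF-1 OFF library differed from its own 0 h. At 1300 UMIs H2afy was detected in 50.4%, 56.7% and 61.6% and in 64.0%, 33.5% and 16.8% of cells, and unthinned in 91.3%, 93.1% and 95.7%, and 97.9%, 61.1% and 26.8%. H2afy2, which encodes macroH2A2 and is no member, lay the other way at a low level. It had 1, 47 and 46 UMIs over the HOXA9 OFF libraries, a ratio of 37.1 (6.34 to 1496) at 48 h and 54.7 (9.34 to 2207) at 96 h, and 0, 6 and 7 UMIs over the CAF-1 OFF libraries.

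H2afj encodes H2A.J, a variant known from senescent cells. It was among the steadiest members, its highest library 1.60 times its lowest, next to 1.54 times for H3f3a. H2afj was at 611, 645 and 517 CPM over the CAF-1 OFF libraries and at 589, 604 and 826 CPM over the HOXA9 OFF libraries, 1.18-fold lower (1.12 to 1.25) and 1.402-fold higher (1.33 to 1.48) at 96 h. Within the member set its part of the UMIs in HOXA9 OFF went from 5.59% at 0 h to 13.5% at 96 h, that of H3f3a from 17.5% to 46.4%, and that of H2afz from 41.1% to 12.8%. In CAF-1 OFF the part of H3f3b went from 18.9% to 38.4% and that of H2afz from 40.6% to 26.8%. None of 14 canonical H3 and H2A genes reached 20 CPM, and they summed to 69.0, 75.5 and 54.3 CPM and 69.0, 24.9 and 6.81 CPM over the CAF-1 OFF and the HOXA9 OFF libraries.

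Each library was also divided by the G2/M UMIs of its cells at 1300 UMIs, into cells with 3 or more (G2/M-positive below) and cells with none. HOXA9 OFF had 236 and 72 such cells at 0 h, 220 and 792 at 48 h and 13 and 1089 at 96 h. The classes are ranges of a count and no cell types, and 119 cells of HOXA9 OFF at 48 h and 235 of CAF-1 OFF at 96 h held 2 or 3 G2/M UMIs, next to the limit. Cenpa, which is not in the G2/M list, and the other members were read in these classes. In HOXA9 OFF at 48 h the median cell held 0.584% of its UMIs in progenitor genes and 0.175% in late neutrophil genes when G2/M-positive, and 0.221% and 0.0817% with none.

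In HOXA9 OFF at 48 h several members that were lower in the library were not lower in G2/M-positive cells. H2afz was at 4421 CPM in G2/M-positive cells, beside 4476 CPM in those of 0 h, 0.988-fold (0.955 to 1.02), and at 1170.1 CPM beside 3798 CPM in cells with none. Cenpa was at 874 CPM beside 519 CPM in the first class and at 28.6 CPM beside 150.0 CPM in the second. H2afv was 1.79-fold (1.63 to 1.96) the 0 h level in the first and 0.469-fold (0.398 to 0.555) in the second, and H2afx 1.46-fold (1.26 to 1.70) and 0.286-fold (0.179 to 0.462). H3f3b was 1.11-fold (1.05 to 1.17) in the first and 0.794-fold (0.735 to 0.858) in the second. H2afy and H1fx differed from these, being lower in both classes: H2afy was 0.521-fold (0.476 to 0.569) and 0.333-fold (0.296 to 0.373), and H1fx 0.477-fold (0.360 to 0.625) and 0.0609-fold (0.0325 to 0.108). At 96 h only 13 cells were G2/M-positive, with a median of 11.3% of UMIs in late neutrophil genes. In them H2afz was 0.410-fold (0.321 to 0.516), H2afv 0.355-fold (0.130 to 0.776) and H2afx 0.281-fold (0.0339 to 1.02) the level of such cells at 0 h. H2afy was 0.315-fold (0.167 to 0.539) and Cenpa 0.775-fold (0.442 to 1.26). For H2afz and H2afv these intervals lay below the 0 h level, that of H2afv being wide. With a limit of 5 G2/M UMIs, H2afz was at 3505 CPM beside 4513 CPM at 0 h, and H2afv at 256 beside 450 CPM. No intervals against 0 h were made at that limit, so a lower level there was not shown. In cells of 96 h that reached the G2/M-positive limit in S phase UMIs instead, H2afz was 0.613-fold (0.492 to 0.755) such cells at 0 h. H2afv was 1.23-fold (0.701 to 2.01) there, an interval on both sides of no change. At 48 h the 243 cells with at least 1% of UMIs in eosinophil genes held H2afz at 886 CPM, against 2336 CPM in the rest, and H2afy at 159 against 411 CPM.

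In CAF-1 OFF the differences of H3f3b and H1fx were present in both classes and larger in G2/M-positive cells. At 96 h H3f3b was at 7289.9 CPM in 471 G2/M-positive cells, beside 2054 CPM at 0 h, 3.55-fold (3.44 to 3.66), and at 3231 CPM in 136 cells with none, beside 1675 CPM, 1.93-fold (1.78 to 2.09). H1fx was at 425 CPM beside 46.7 CPM, 9.09-fold (7.46 to 11.2), and at 83.3 CPM beside 36.3 CPM, 2.29-fold (1.35 to 4.03). Within the uninduced library G2/M-positive cells held H1fx at 1.29-fold (0.792 to 2.19) the level of the others, and within the 96 h library at 5.10-fold (3.90 to 6.79). H2afz was 1.11-fold (1.08 to 1.13) its 0 h level in G2/M-positive cells and 0.731-fold (0.686 to 0.779) in cells with none, and Cenpa 1.49-fold (1.39 to 1.60) and 0.752-fold (0.548 to 1.03). The median depth was 6655 and 4804 UMIs in these classes, and the part of depth was not tested. The 29 cells with at least 1% of UMIs in early granulocyte genes at 96 h held H3f3b at 3459 CPM, against 6031 CPM in the rest, and H1fx at 95.03 against 318 CPM, with 233 cells at 0.5 to 1.5%.

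**Figure D4:**
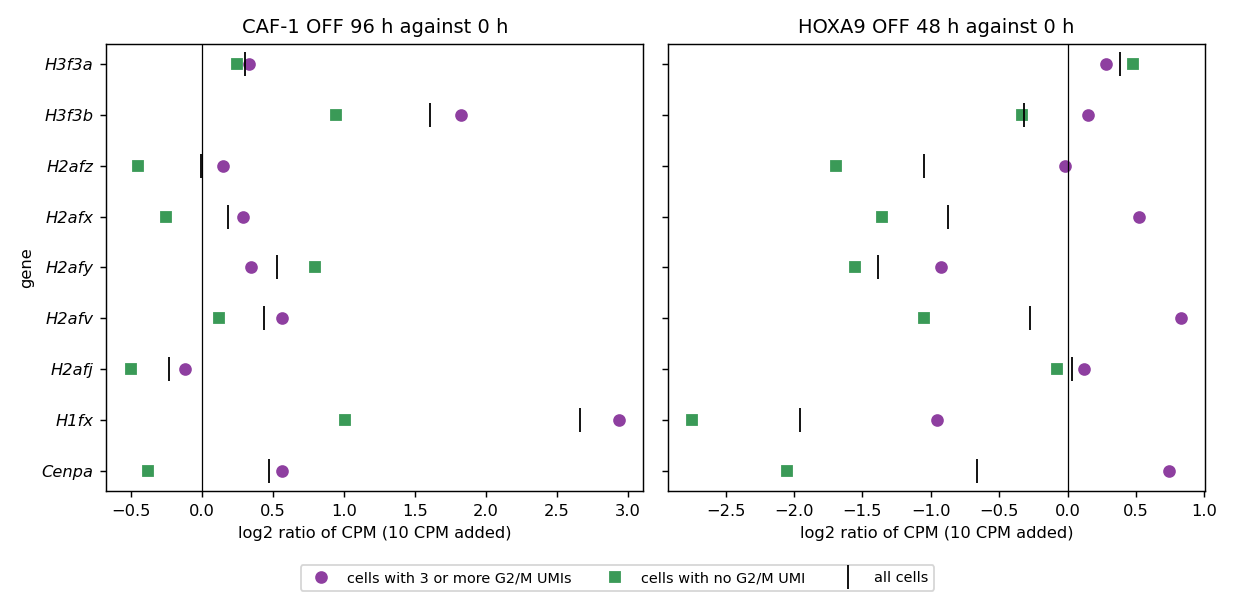
Log2 ratio of CPM, with 10 CPM added, for each counted member (rows), in the left panel after 96 h of CAF-1 OFF and in the right panel after 48 h of HOXA9 OFF, against 0 h of the same arm. Purple circles are cells with 3 or more G2/M UMIs per 1300, green squares cells with none, and black ticks all kept cells. In HOXA9 OFF Cenpa lies at 0.74 in the first class and -2.05 in the second, and in CAF-1 OFF H1fx lies at 2.94 and 1.01.

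In HOXA9 OFF at 96 h, 1304 cells had at least 1% of UMIs in late neutrophil genes and 206 had less. H3f3a was at 2947 CPM in the first and 2462 CPM in the second, 1.20-fold (1.14 to 1.26), and H3f3b at 1334 and 1728 CPM, 0.772-fold (0.724 to 0.824). The H3.3 genes thus lay in opposite directions between these classes. H2afz was at 680.5 and 1200.4 CPM, Cenpa at 18.2 and 66.2 CPM and H2afj at 807 and 899.6 CPM.

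The late neutrophil markers made up 133169 CPM of HOXA9 OFF at 96 h, beside 8917 CPM at 48 h, and the 10 most abundant genes held 26.1% of its UMIs, beside 7.56% at 0 h. As the total sets every CPM, values of this arm depend on the scaling. With TMM factors the median log2 ratio of all counted genes was 0.02 at 48 h and -0.19 at 96 h, in place of -0.23 and -0.56. At 96 h the log2 ratio of H3f3a was then 1.11 in place of 0.62, past 2-fold, and that of H2afj 0.96 in place of 0.48. H3f3b changed sign at 96 h, to 0.18 from -0.30, and H2afv at 48 h, to 0.02 from -0.28. H2afz at 48 h fell short of the 2-fold size, at -0.75 in place of -1.05.

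The genes whose 4 log2 ratios lay nearest to those of a member were found by the root mean square of the differences. For Cenpa they were Lockd (0.19), Spc25 (0.19) and Ccnb2 (0.19). For H3f3b they were Dync2li1 (0.17), Tsc22d1 (0.27) and Cdkn2c (0.29), and for H1fx Nkg7 (0.60), Car2 (0.79) and Rab38 (0.79), so that no gene lay as close to H1fx. The 10 CPM added makes the differences of genes at low levels look smaller, so genes with near log2 ratios need not have near folds. Dync2li1 was at 10.2, 43.5 and 50.6 CPM over the CAF-1 OFF libraries. Spc25 was at 76.8, 44.3 and 0.851 CPM over the HOXA9 OFF libraries, where Cenpa ended at 28.1 CPM. The measure says nothing for H1f0, whose ratios rest on 2 UMIs.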

How the data were processed

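Cells of 6 iGMP libraries, 1 for each group, were analysed. The authors deposited a table of raw UMI counts per gene and cell barcode, made from droplet 3′ reads, and the submitters' processing notes name Cell Ranger 3.0.1, Scanpy 1.4.6, Seurat 3.0.1 and build mm10. From these counts, cells with 200 to 6000 genes and at most 10% mitochondrial UMIs were kept (5872 of 7821 barcodes). UMIs were summed by library and scaled to CPM, and log2 ratios had 10 CPM added. Because each group was 1 library, there was no test, and sizes of at least 2-fold were counted over the 4789 genes whose mean reached 20 CPM. Intervals are exact (Poisson for CPM, Clopper-Pearson for shares, conditional binomial for folds) at 95%, and UMIs of 1 library are not replicates of a culture. Shares of cells and G2/M classes used cells thinned to 1300 UMIs, leaving out shallower cells. Scrublet marked 131 kept cells (2.23%) as doublets, which were left out only as an alternative. The ratio and interval code was tested on simulated data. Python 3.11.15, numpy 2.4.6, scipy 1.17.1, pandas 2.3.3 and scanpy 1.11.5 were used, with TMM factors from edgeR 4.0.16. Motifs were searched in RefSeq promoter windows.

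The genes named are the 10 members, Chaf1b, up to 4 genes of each list of variant-handling genes (those with the largest absolute log2 ratio at 96 h in either arm among counted genes) and the 3 genes nearest in pattern to H3f3b, H1fx, Cenpa and H1f0. A gene that this rule would name is not reported here. H2afy2 and the late neutrophil, eosinophil and early granulocyte lists are named as lists. The members and lists were chosen with earlier results of these data known. The limit for H3f3b-rich cells and its alternative were chosen after the values were seen. For the library ratios and counts 13 alternatives were tried, which concerned scaling, added CPM, size, minimum level, mitochondrial limit, doublets and averaging over cells. Other thinning settings and other class limits were tried besides these.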

Additional observations from a re-analysis of the deposited data

Results flagged for a closer look

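For 6 members the log2 ratio lay in opposite directions in the arms at both times, below 0 in HOXA9 OFF and above 0 in the other arm. The share of all counted genes with this pattern was not computed, so the count is no trait of the members. Over all counted genes the median log2 ratio at 48 and 96 h was -0.23 and -0.56 in HOXA9 OFF and 0.00 and -0.08 in CAF-1 OFF. At 96 h the ratio in CAF-1 OFF exceeded that in HOXA9 OFF by 6.12 for H1fx, by 3.84 for Cenpa, by 3.17 for H2afy, by 2.99 for H2afx, by 2.77 for H2afv and by 1.91 for H3f3b. H2afj lay the reverse way at 96 h alone, at 0.48 in HOXA9 OFF against -0.24 in the CAF-1 arm, and above 0 in both at 48 h. Each arm is 1 clone with 1 library a time, so the differences were not tested and the arm cannot be told apart from the clone. In HOXA9 OFF the direction of H3f3b at 96 h and that of H2afv at 48 h turned with the scaling. The direction of H2afx at 96 h in CAF-1 OFF turned with a limit of 5% mitochondrial UMIs.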

How the results depend on the processing

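No member past the 2-fold size changed direction under an alternative. At 96 h of HOXA9 OFF the count of members at least 2-fold higher went from 0 to 1 with TMM scaling (H3f3a), to 2 with median-of-ratios scaling (H3f3a and H2afj) and to 1 with a size of 1.5-fold (H3f3a). At 48 h of HOXA9 OFF the count of lower members went from 3 to 5 with a size of 1.5-fold and to 0 with a size of 4-fold. Under TMM scaling H2afz no longer reached the 2-fold size at that time. With 4-fold, the count of higher members in CAF-1 OFF was 1 at 48 h and 1 at 96 h (H1fx). The alternatives' own construction sets these counts. The log2 ratio of H3f3b at 96 h of HOXA9 OFF ranged from -0.73 to 0.26, that of H2afx at 96 h of CAF-1 OFF from -0.10 to 0.26, that of H2afz there from -0.07 to 0.07, and at 48 h of HOXA9 OFF that of H2afv from -0.55 to 0.02 and that of H2afj from -0.03 to 0.33. In CAF-1 OFF at 96 h H3f3b stayed between 1.53 and 1.69 and H1fx between 2.00 and 2.91. Shares of cells depended on depth, and 54 of 60 lay outside their interval when cells were thinned to 2600 UMIs. No paired analysis was possible because each group has 1 library and no test was made. For the same reason no library could be left out.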
